A study of Mus musculus with 104 samples.

Results

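Glutathione S-transferases are measured here by 15 probe sets for 10 genes, out of 22626 probe sets on the array, which name 12393 genes by 1 symbol. They comprise every probe set annotated to 1 of the symbols Gsta2, Gsta3, Gsta4, Gstm1, Gstm2, Gstm5, Gsto1, Gstt1, Gstt2 and Gstk1 alone. By class, 4 probe sets belong to the alpha class, 6 to the mu class and 5 to other classes (omega, theta and kappa). The lungs came from mice exposed to phosgene (CG in the labels, with a dose label of 32 mg, whose volume unit the labels leave out), from mice exposed to air, and from untreated mice. Phosgene lungs were taken at 0.5, 1, 4, 8, 12, 24, 48 and 72 h, with 3 lungs at each time (24 in all). Air lungs were taken at the same times, with 3 lungs each and 4 at 48 h (25 in all), and 3 lungs were untreated. The labels give the times without a unit, and hours are taken from what is known of the study. Strain, sex and age are not used here, no genetic change is named for any group, and the labels do not say whether each lung came from a separate mouse, so p-values measure the spread between lungs. RNA of each of the 52 lungs was hybridized to 2 chips, which gave 104 chips.

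Glutathione transferases join the thiol of glutathione to electrophiles, such as the aldehydes and quinones that oxidative damage leaves, and the conjugates are then pumped out of the cell. Several of their genes are classic targets of NRF2 (Nfe2l2), a transcription factor that electrophiles release from its inhibitor Keap1 and that binds antioxidant response elements. Phosgene is an acylating gas that reacts with thiols, glutathione among them, and injures the barrier between air space and capillary. In mouse lung, alpha and mu transferases are found in the airway epithelium, club cells in particular.

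For 8 of the 10 genes RefSeq promoters were at hand (build GRCm38.p6), and 4 are shown, because these genes rose furthest (Gsta2), rose at the most times beside it (Gsto1), fell late (Gstm1), or hold the core of an antioxidant response element (Gsta3). Each runs 5′ to 3′ from 250 bases before the transcription start to 50 after it. Capitals mark a match to the core TGACNNNGC on either strand.
Gsta2, chr9:78347096-78347395, minus strand: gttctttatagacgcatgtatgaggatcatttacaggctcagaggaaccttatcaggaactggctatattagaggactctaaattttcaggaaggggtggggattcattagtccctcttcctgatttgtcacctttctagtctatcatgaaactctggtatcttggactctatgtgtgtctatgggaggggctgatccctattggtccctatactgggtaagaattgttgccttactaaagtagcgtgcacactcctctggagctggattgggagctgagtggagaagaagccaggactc
Gsto1, chr19:47854723-47855022, plus strand: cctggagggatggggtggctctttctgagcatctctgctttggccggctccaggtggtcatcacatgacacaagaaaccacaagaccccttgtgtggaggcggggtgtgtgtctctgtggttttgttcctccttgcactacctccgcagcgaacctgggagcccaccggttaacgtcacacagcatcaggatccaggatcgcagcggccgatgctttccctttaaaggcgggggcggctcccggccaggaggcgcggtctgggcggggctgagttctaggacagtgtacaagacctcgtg
Gstm1, chr3:108017769-108018068, minus strand: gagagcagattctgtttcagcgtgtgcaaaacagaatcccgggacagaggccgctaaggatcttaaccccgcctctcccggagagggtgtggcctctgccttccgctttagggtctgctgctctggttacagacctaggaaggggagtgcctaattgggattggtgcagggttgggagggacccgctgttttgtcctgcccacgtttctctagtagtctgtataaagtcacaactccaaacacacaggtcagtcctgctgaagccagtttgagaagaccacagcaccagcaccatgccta
Gsta3, chr1:21240335-21240634, plus strand: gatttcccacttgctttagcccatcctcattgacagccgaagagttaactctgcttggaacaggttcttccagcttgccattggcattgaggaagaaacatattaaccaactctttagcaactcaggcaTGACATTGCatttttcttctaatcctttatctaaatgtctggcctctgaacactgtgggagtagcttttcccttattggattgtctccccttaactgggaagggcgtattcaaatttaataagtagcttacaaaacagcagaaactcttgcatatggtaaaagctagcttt
The core was found in the promoters of Gsta3 (from base 130) and Gstm5 (from base 209), and in none of the windows of Gsta2, Gsto1, Gstm1 (both of its starts), Gstm2, Gstk1 and Gstt1. Of 32851 promoters of 27025 mouse genes, 12.4% hold it. A second pattern, TGANTCA, which resembles the AP-1 site and can overlap the first, was found once, in the promoter of Gstm5, and in 7.81% of all promoters. Letters that match are not evidence of binding, and their absence covers only this window. The mu genes Gstm1, Gstm2 and Gstm5 lie near each other on chromosome 3, whereas the alpha genes Gsta2 and Gsta3 lie on chromosomes 9 and 1.

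Values are intensities on a linear scale, set by the authors so that every chip has the same trimmed mean (150.03 to 150.04), and chip medians ran between 68.2 and 90.1. The intensity of 1 probe set cannot be set against that of another, because probes differ in brightness. Changes are differences of log2(intensity + 16), phosgene minus air of the same time, and folds are on that scale too, so both understate the change of dim probe sets. They are given with the moderated standard error (SE), and a probe set was called at a Benjamini-Hochberg adjusted p under 0.05 over all 22626 probe sets (limma). Alveolar type 2 markers, which define lung, were bright (9 of 10 measured, summing to between 26280 and 31200 in untreated lungs). Air replicate 1 of 1 h stood apart in markers of other tissues: the thymocyte sum reached 1111 in it, against a median of 207 in its group, and the adipocyte sum 2463, against a median of 1065. No transferase was called at 1 h with or without that lung. One phosgene lung of 12 h, replicate 2, lay near the air lungs in several transferases and is named beside the results it moves. Of the air lungs, 5 carry numbers apart from the rest (1 at 8 h, 2 at 48 h and 2 at 72 h).

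Over the 8 times there were 16 calls among 120 combinations of probe set and time, of which 11 were increases and 5 decreases after phosgene. No transferase was called at 0.5 h or at 1 h, when 0.217% and 0.729% of all probe sets were called in either direction. At 4 h, 4 of 15 were higher and none lower, against 2.18% and 1.64% of all probe sets. At 8 h, 2 of 15 were higher and none lower, against 3.21% and 2.9%. At 12 h, 2 were higher and none lower, against 1.04% and 0.385%, and at 24 h again 2 were higher and none lower, against 0.769% and 0.517%. At 48 h, 1 was higher and 2 were lower, against 2.36% and 1.87%. At 72 h, 3 were lower and none higher, against 1.19% lower and 1.68% higher. All 10 calls up to 24 h belonged to alpha transferases and Gsto1, and all 5 calls of lower intensity belonged to the mu genes Gstm1 and Gstm2, at 48 and 72 h.

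**Figure D1:**
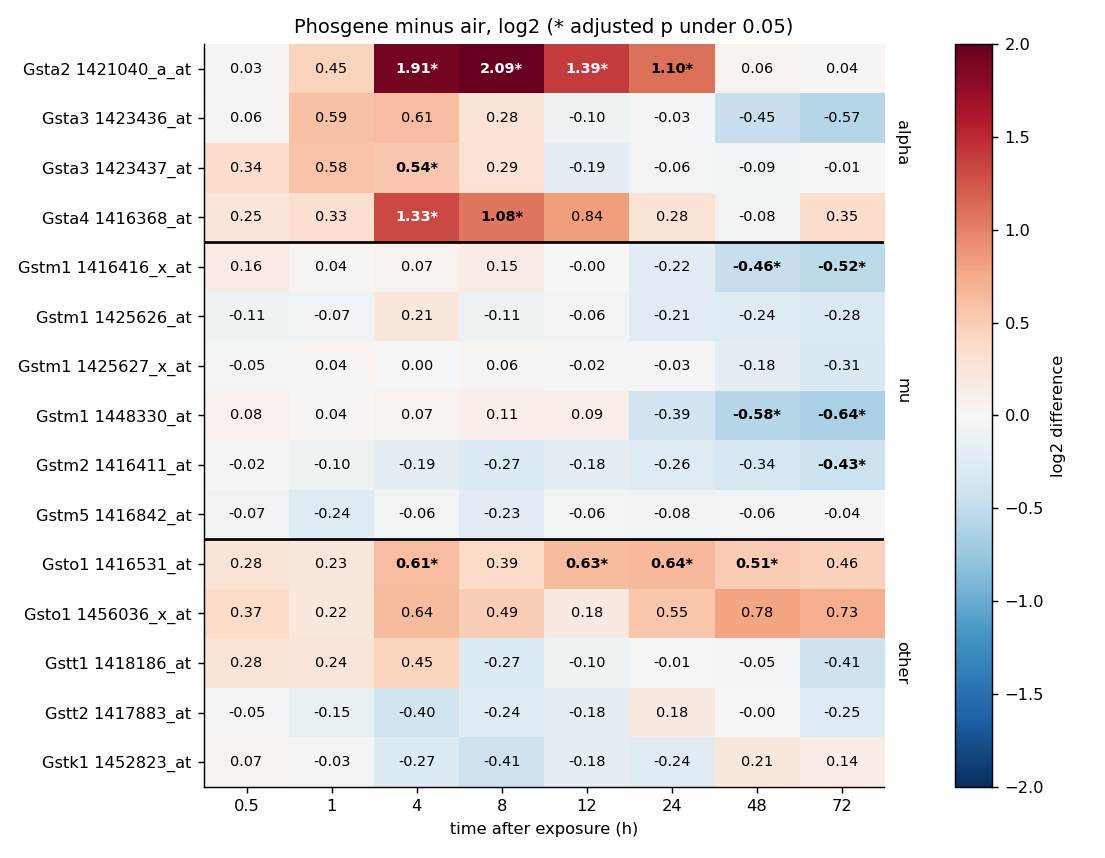
Log2 difference, phosgene minus air, of the 15 transferase probe sets (rows, by class) at each of 8 times (columns, h). Stars and bold type mark an adjusted p under 0.05: the alpha class holds the largest differences, up to 2.09 at 8 h, and 2 of 6 mu probe sets are called lower at 48 h and 3 of 6 at 72 h.

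Averaged over the 8 times, 5 of 15 probe sets were higher (background 9.35% of all probe sets) and 2 were lower (background 12.9%). The higher ones were Gsta2, Gsta4, 1 of 2 Gsta3 probe sets and both Gsto1 probe sets, and the lower ones were Gstm2 and 1 of 4 Gstm1 probe sets. Whether the phosgene difference changed with time was tested with an F test, which called 2 of 15 probe sets, Gsta2 and Gstm1 (1448330_at), against 2.74% of all probe sets. The median log2 difference of the alpha probe sets was 0.972 at 4 h and 0.014 at 72 h. That of the mu probe sets was 0.034 at 4 h and -0.37 at 72 h, and the medians over all probe sets at these times were -0.072 and 0.007.

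Gsta2, an alpha transferase that conjugates a broad range of electrophiles, rose most of all members. At 8 h the probe set 1421040_a_at read 438, 366 and 323 in the 3 phosgene lungs, against 69.7, 81.3 and 76.0 in the 3 air lungs. Every phosgene lung of 8 h was thus above every air lung. The log2 difference was 2.09 (SE 0.296, a 4.25-fold rise, adjusted p 4.24e-06). At 4 h Gsta2 was already 1.91 higher on the log2 scale (SE 0.296, adjusted p 3.57e-05), with 264.5, 284 and 255 in phosgene lungs and 45.0, 73.9 and 62.7 in air lungs.

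Gsta2 was called higher at each time between 4 and 24 h, and at no time before or after. Its mean was 72.4 ± 10.5 in phosgene lungs at 0.5 h, 88.9 ± 13.2 at 1 h, 268 ± 14.7 at 4 h, 376 ± 58.3 at 8 h, 320 ± 240 at 12 h, 160 ± 19.1 at 24 h, 69.0 ± 20.4 at 48 h and 69.7 ± 14.7 at 72 h (SD, n = 3 each). In air lungs the 8 means stayed between 60.5 and 86.1, and the untreated lungs averaged 61.4 ± 15.4 (SD, n = 3). These control values lie about at the chip median, and whether Gsta2 RNA gives rise to them was not tested. By 48 and 72 h the log2 differences were 0.06 and 0.04, with 95% intervals that include 0. The F test found that the difference changed with time (F = 8.51, adjusted p 0.000466).

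At 12 h the phosgene lungs disagreed. Gsta2 read 564, 84.5 and 312 in them, against 79.1, 82.8 and 96.3 in air lungs, so that replicate 2 lay among the air lungs while the others stood above them. The difference of 1.39 (adjusted p 0.00611) was 2.10 without phosgene replicate 2 (adjusted p 3.18e-08) and 0.834 without phosgene replicate 1, where the call was lost (adjusted p 0.235). Replicate 2 was singled out by these same values, so the adjusted p without it is no test of a rise. At 24 h the groups separated again, with 138, 167 and 174 in phosgene lungs and 70.4, 58.9 and 68.6 in air lungs. The log2 difference at 24 h was 1.10 (adjusted p 0.0495), just inside the threshold, and the call was lost whichever of the 6 lungs was left out (adjusted p up to 0.205). The calls at 4 and 8 h held whichever lung was left out, with adjusted p up to 0.00109 and 0.000175.

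A second probe set, 1421041_s_at, matches Gsta2 together with Gsta1 and Gm3776 and is no member because it cannot tell them apart. Its mean intensity was 436 in phosgene lungs at 4 h, against 38.4 in air lungs, and 774 in phosgene lungs at 8 h, against 43.3 in air lungs. The log2 differences, taken after adding 16, were 3.05 and 3.76 (adjusted p 1.19e-05 and 1.16e-07). At 48 and 72 h they were 0.177 and 0.147, with neither called.

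Gsta4, the alpha transferase known for detoxifying hydroxynonenal, an aldehyde of lipid peroxidation, rose at the same 2 early times. At 4 h it read 492, 678 and 503 in phosgene lungs and 245, 174 and 218 in air lungs, without overlap. The log2 difference was 1.33 (SE 0.268, a 2.51-fold rise, adjusted p 0.00171), and it held whichever lung was left out. At 8 h Gsta4 read 736, 727 and 521 in phosgene lungs and 268, 249 and 406 in air lungs, a log2 difference of 1.08 (adjusted p 0.00912). That call was lost without phosgene replicate 1 or without air replicate 2 (adjusted p up to 0.0658). The air lung at 406 is the 1 of 8 h whose number lies apart. At 12 h the 3 phosgene lungs read 1077, 283 and 450, replicate 2 again lying among the air lungs of 300, 310 and 243. The difference of 0.838 at 12 h was not called (adjusted p 0.115). Without phosgene replicate 2 it was 1.26 (adjusted p 0.00477), but that lung was singled out by its values, so this is no test of a rise. Against untreated lungs, at 316 ± 38.6 (SD, n = 3), the Gsta4 difference at 4 h was 0.780 and was not called (adjusted p 0.0936), and air lungs at 4 h averaged 212.

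**Figure D2:**
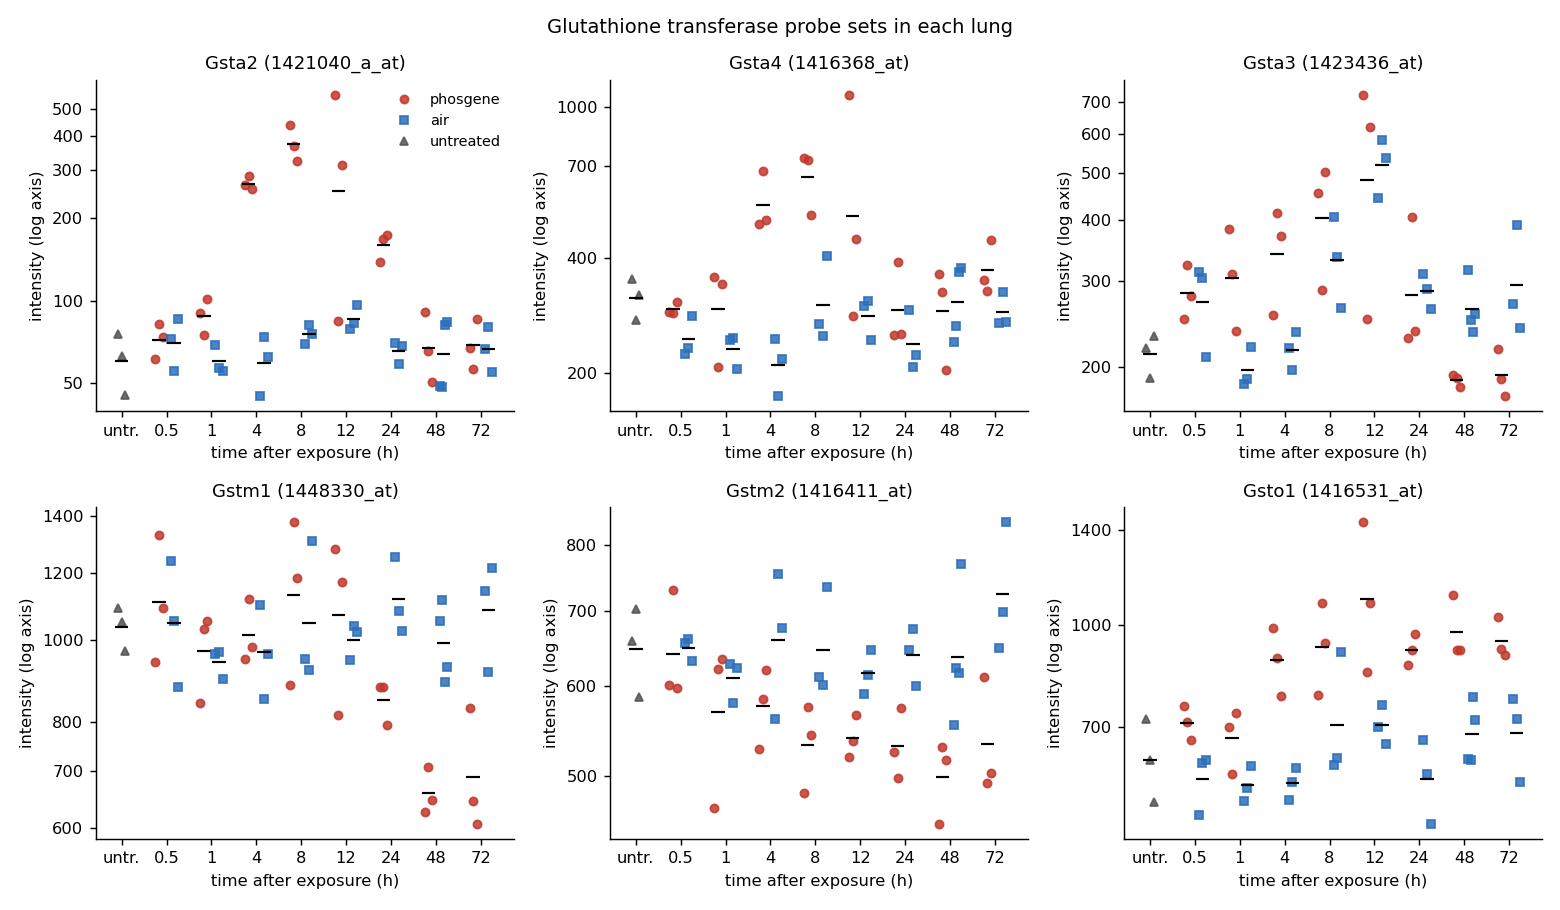
Intensity (log axis) of 6 transferase probe sets in each lung by time (h): phosgene circles, air squares, untreated triangles at the left, and bars for the group mean taken on the log2 scale. Gsta2 stands above air at 4 and 8 h in all 3 phosgene lungs, Gsta3 climbs at 12 h in air too, and Gstm1 lies below all air lungs at 48 h.

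Gsta3, an alpha transferase that in the mouse conjugates the epoxide of aflatoxin, was read by a pair of probe sets, both higher in all phosgene lungs than in any air lung at 4 h, of which 1 passed the test. The probe set 1423437_at then read 124, 134 and 163 in phosgene lungs and 77.9, 98.5 and 99.0 in air lungs. The log2 difference of 0.536 (SE 0.160, a 1.45-fold rise, adjusted p 0.0481) was just inside the threshold and was lost whichever of the 6 lungs was left out (adjusted p up to 0.182). The brighter probe set, 1423436_at, read 255, 414 and 372 in phosgene lungs and 219, 197 and 236 in air lungs at 4 h. Its log2 difference of 0.615 (SE 0.245) was the greater of the pair but was not called (adjusted p 0.16). At 1 h the differences were 0.59 for 1423436_at and 0.578 for 1423437_at, neither called, and without phosgene replicate 3 that of 1423437_at was 0.712 and was called. That lung is named because the call appeared without it, so this is no separate support for a rise.

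The Gsta3 level also changed with time in air lungs. In air the mean of 1423436_at was 522 ± 71.8 at 12 h (SD, n = 3), against 213 ± 21.2 in untreated lungs (SD, n = 3), with 444, 585 and 537 in the 3 air lungs of 12 h and 219, 190 and 231 in the untreated lungs. This log2 difference, air minus untreated, was 1.23 (SE 0.245, adjusted p 0.00899), and for 1423437_at it was 0.759 (adjusted p 0.0129). These were 2 of 15 transferase probe sets called higher in air at 12 h, against 0.557% of all probe sets. An F test over the 8 air groups called the same 2 probe sets (adjusted p 0.0363 and 0.0157) and no other member, against 0.592% of all probe sets. Phosgene lungs of 12 h read 724, 250 and 620 for 1423436_at, so they surrounded the air lungs, and the phosgene difference there was -0.10. Measured against untreated lungs instead, the same phosgene lungs were 1.13 higher (adjusted p 0.00559).

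After 12 h the Gsta3 means were lower. In air lungs 1423436_at averaged 287 at 24 h, 265 at 48 h and 300.4 at 72 h, and in phosgene lungs it averaged 291 at 24 h, 188 at 48 h and 194 at 72 h. The phosgene values at 72 h were 217, 189 and 174, against 269.7, 391.6 and 240.0 in air lungs, a log2 difference of -0.57 that was not called. The dimmer probe set, at -0.01 at 72 h, did not show it, so the pair disagreed at the late times.

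Of the mu class, no probe set was called before 48 h, although all 6 had negative differences at 24 h (median -0.215). Gstm1, the mu transferase with the most probe sets here, showed the largest late fall. At 72 h the probe set 1448330_at read 831, 646 and 607 in phosgene lungs and 1143, 916 and 1215 in air lungs, without overlap. The log2 difference was -0.643 (SE 0.157, 1.56-fold lower, adjusted p 0.0142). At 48 h it read 627, 707 and 647 in phosgene lungs and 1051, 1113, 892 and 930 in air lungs, a difference of -0.578 (SE 0.147, adjusted p 0.0138). In untreated lungs the same probe set averaged 1037 ± 61.2 (SD, n = 3).

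The difference of Gstm1 by 1448330_at changed with time (F = 4.48, adjusted p 0.0385). It lay between 0.04 and 0.11 at the times up to 12 h and was -0.386 at 24 h, where it was not called. With quantile normalization, or with chip A or chip B alone, the F test called fewer members, and which call was lost is not given. The other bright probe set, 1416416_x_at, moved alike: at 72 h it read 1016, 738 and 888 in phosgene lungs and 1343, 1071 and 1385 in air lungs, a difference of -0.519 (adjusted p 0.0203), and at 48 h the difference was -0.456 (adjusted p 0.024). The 2 dimmer Gstm1 probe sets were lower at both times without a call, by -0.24 and -0.28 for 1425626_at and by -0.18 and -0.31 for 1425627_x_at at 48 and 72 h. Over the 17 group means, the Pearson r of 1448330_at was 0.976 with 1416416_x_at, 0.766 with 1425626_at and 0.842 with 1425627_x_at. Probe sets ending in _x_at can share probes with related transcripts, so the reading of single mu genes is uncertain.

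Each late Gstm1 call depended on single lungs. At 48 h both were lost without phosgene replicate 1, phosgene replicate 3 or air replicate 2 (adjusted p up to 0.077 for 1448330_at and 0.13 for 1416416_x_at). At 72 h both were lost without phosgene replicate 2 or 3 or air replicate 1 or 3 (adjusted p up to 0.114 and 0.191), and also without the 5 air lungs whose numbers lie apart, which leaves 1 air lung at 72 h.

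Gstm2, a mu transferase known in humans also as a prostaglandin isomerase, had negative differences at all 8 times, 1 of them called. At 72 h it read 612, 493 and 503 in phosgene lungs and 649, 698 and 838 in air lungs, a log2 difference of -0.429 (SE 0.118, 1.35-fold lower, adjusted p 0.0333). At 48 h the 3 phosgene lungs read 454, 530 and 516, all below the 4 air lungs of 555, 622, 617 and 770, and the difference of -0.342 was not called (adjusted p 0.0703). The call at 72 h was lost without phosgene replicate 2 or 3 or air replicate 2 or 3 (adjusted p up to 0.269). It was also lost with hybridization day as a term (-0.356, adjusted p 0.158), with chip lot as a term (-0.287, adjusted p 0.448), with chip B alone, with the groups of 72 h fitted alone, against untreated lungs, and without the 5 air lungs whose numbers lie apart (adjusted p up to 0.748). The average over the 8 times was -0.224 (SE 0.041, 95% interval -0.308 to -0.141, adjusted p 7.22e-05), and for 1448330_at of Gstm1 it was -0.151 (adjusted p 0.0421). Gstm5, the mu transferase known mainly from brain and testis, was between -0.238 and -0.044 at the 8 times and was never called, and its intensity lay between 111 and 181 in all lungs.

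Among the other classes, Gsto1 rose. Gsto1 is the omega transferase, which acts as a thiol transferase and reduces dehydroascorbate rather than conjugating electrophiles. At 24 h the probe set 1416531_at read 869, 916 and 970.0 in phosgene lungs and 669, 593 and 497 in air lungs, without overlap, a log2 difference of 0.642 (SE 0.150, a 1.56-fold rise, adjusted p 0.0163). It was also called at 4 h (0.61, adjusted p 0.0124), 12 h (0.629, adjusted p 0.0185) and 48 h (0.509, adjusted p 0.0258), and was 0.387 at 8 h and 0.462 at 72 h without a call. At 12 h the phosgene lungs read 1436, 848 and 1081, all above the air lungs of 699, 756 and 658, so replicate 2 was the lowest of them and still above air. Averaged over the 8 times, Gsto1 was 0.469 higher (SE 0.052, 95% interval 0.363 to 0.575, adjusted p 6e-09).

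For Gsto1 the F test did not call a change of the difference with time (F = 1.12, adjusted p 0.837). At each single time its call rested on few lungs: it was lost at 4 h without phosgene replicate 1 or 2 or air replicate 1 (adjusted p up to 0.0779), at 12 h without phosgene replicate 1 or air replicate 1 or 3 (up to 0.321), at 24 h without phosgene replicate 3 or air replicate 2 or 3 (up to 0.154), and at 48 h without phosgene replicate 1 or 3 or air replicate 1 or 2 (up to 0.175). At 8 h, air replicate 3, the 1 air lung of that time whose number lies apart, read 910.2, among the phosgene lungs of 782, 1082 and 939. Without it the difference was 0.57 and was called, but that lung is named because of its value, so this is no separate support. The second Gsto1 probe set, 1456036_x_at, was higher at all 8 times, by 0.18 to 0.78, but was called only in the average (0.495, SE 0.108, adjusted p 0.000625). Its chips agreed less well: the median difference between the 2 chips of a lung was 0.306 on the log2 scale, against 0.116 for 1416531_at.

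**Figure D3:**
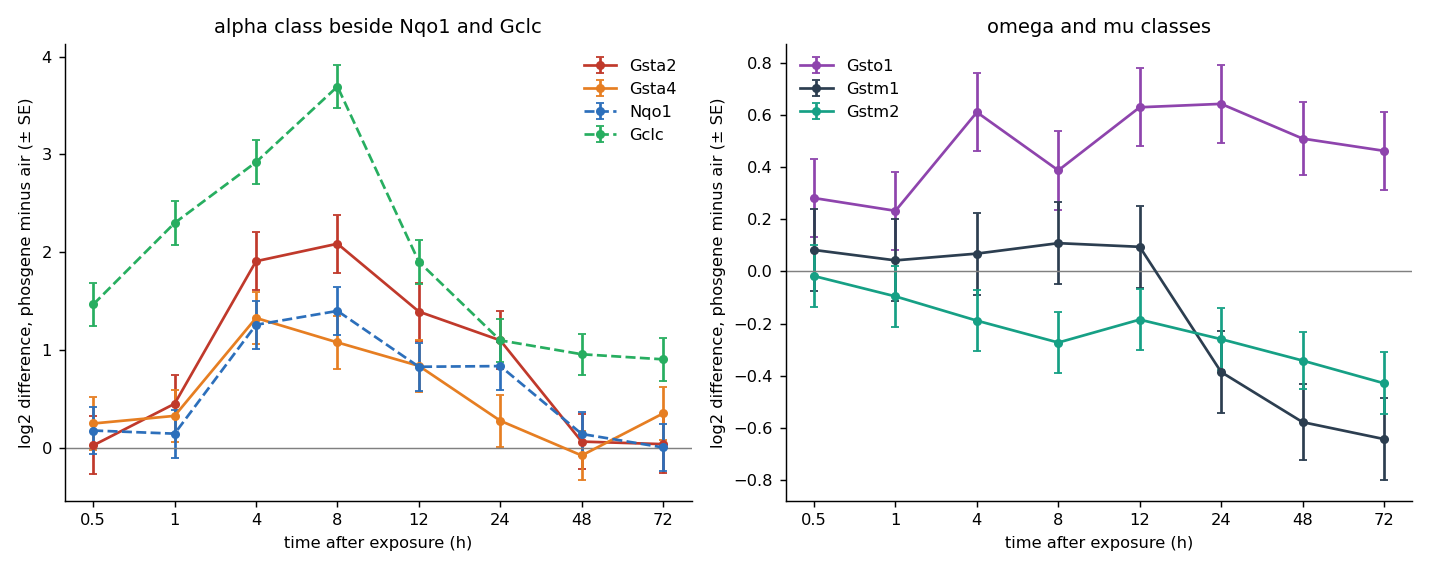
Log2 difference, phosgene minus air (± SE), against time (h) for Gsta2 and Gsta4 beside Nqo1 and Gclc (left) and for Gsto1, Gstm1 and Gstm2 (right, with a narrower axis). Gsta2 and Gsta4 are highest at 8 and 4 h and lie at 0.06 and -0.08 at 48 h, while Gsto1 stays between 0.23 and 0.64 and Gstm1 turns negative at 24 h.

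The theta transferases Gstt1 and Gstt2, the first known for conjugating small halogenated compounds, and Gstk1, the kappa enzyme of mitochondria and peroxisomes, were not called at any time, in the average or in the F test. Their log2 differences ran between -0.412 and 0.449 for Gstt1, -0.397 and 0.183 for Gstt2, and -0.411 and 0.21 for Gstk1. Gstt1 varied widely among lungs of the same group, with values between 115 and 504 and a within-group SD of 0.439 on the log2 scale, while the 2 chips of a lung differed by a median of 0.104. At 24 h, for example, Gstt1 read 264, 408 and 115 in phosgene lungs and 290.0, 296 and 150.2 in air lungs. The SE of its difference at that time, 0.339 on the log2 scale, was the largest among the 15 probe sets.

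Genes of glutathione handling and of the NRF2 pathway outside the family were called higher most often at 4 and 8 h, and these lists were chosen with earlier results of these data known. Of 17 measured NRF2 target enzymes outside glutathione use (20 listed), 13 were called higher at 4 h and 14 at 8 h, against 2.18% and 3.21% of all probe sets, and the median log2 differences were 1.02 and 1.04. At 12 h 9 of the 17 were called higher, against 1.04% of all probe sets. At 8 h the largest were Hmox1, which breaks down heme (3.30), Srxn1, which repairs peroxiredoxins (3.06), Blvrb, a biliverdin reductase (2.80), and Txnrd1, thioredoxin reductase (2.34). At 48 h Akr1b8, an aldo-keto reductase, was called higher (1.11) and Ephx1, microsomal epoxide hydrolase, lower (-0.491). At 72 h Akr1b8 alone of the 17 was called (0.799), as it was at every time from 4 h on. Of 7 regulators of the pathway, 4 were higher at 4 h and 5 at 8 h, Maff (2.88), Sqstm1 (1.14), Mafk (0.82), Mafg (0.66) and Bach1 (0.64), while Nfe2l2 and Keap1 themselves were not called.

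Of 14 measured genes of glutathione synthesis, breakdown and recycling (16 listed), 4 were higher at 4 h and 5 at 8 h, against 2.18% and 3.21% of all probe sets. These 5 were Gclc and Gclm, the subunits of the enzyme that starts glutathione synthesis (3.69 and 2.37), Slc7a11 and Slc3a2, which import cystine (1.28 and 1.24), and Gsr, glutathione reductase (0.94). Of 8 glutathione peroxidases, 1 was higher at each of 4, 8, 12 and 24 h, Gpx2 of the epithelium (1.80 at 8 h), and at 72 h Gpx1 was (0.41). The shares of all probe sets called higher were 1.04% at 12 h, 0.769% at 24 h and 1.68% at 72 h. Of 5 measured exporters of conjugates (7 listed), Abcc1 alone was higher, at 4 and 8 h (1.00 and 0.89). Of 14 measured other transferases and membrane-bound relatives (19 listed), 0 were called at 7 of the 8 times by limma. At 48 h Mgst3, a microsomal transferase, was higher (0.79, limma adjusted p 0.000602), where 2.36% of all probe sets were called higher. Gstp1, the pi transferase, averaged 1776 in phosgene lungs at 8 h, against 1455 in air lungs, and was not called.

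Gsta2 and the NRF2 target enzymes were also compared within each phosgene lung. In the 3 lungs of 8 h the mean log2 difference of the 17 enzymes from the air mean was 1.46, 1.32 and 1.19, and that of Gsta2 was 2.31, 2.06 and 1.89. Phosgene replicate 2 of 12 h, in which Gsta2 and Gsta4 differed from the air mean by -0.02 and 0.00, had a mean of 0.21 over the 17 enzymes, against 1.24 and 0.95 in the other lungs of that time. In that lung Nqo1 differed from the air mean by -0.34 and Gclc by 1.54, so Gclc stood above air in that lung and Nqo1 and Gsta2 did not. At 1 h the enzymes had a mean difference of 0.97, 0.71 and 0.94, above the 0.48, 0.25 and 0.62 of Gsta2. At 24 h the enzymes had 0.51, 0.47 and 0.68, below the 0.92, 1.17 and 1.22 of Gsta2.

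**Figure D4:**
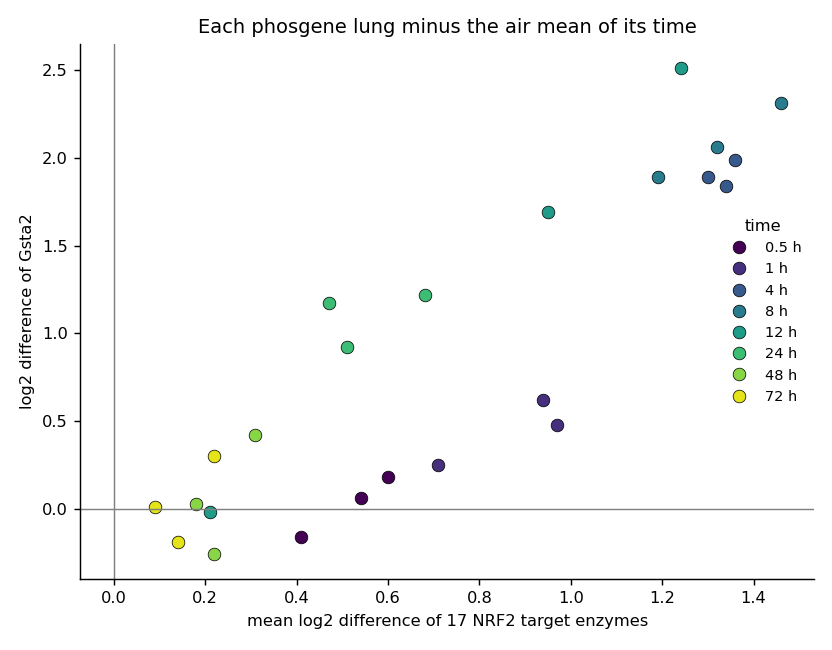
Each point is 1 of 24 phosgene lungs: the mean log2 difference of 17 NRF2 target enzymes from the air mean of its time (x axis) and the log2 difference of Gsta2 (y axis), coloured by time. The lungs of 4 and 8 h lie at the upper right, those of 0.5, 48 and 72 h near a Gsta2 difference of 0, and 1 lung of 12 h lies beside those of 48 and 72 h.

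By pattern over the 17 group means, the genes nearest to Gsta2 were Nqo1, a quinone reductase and NRF2 target (Pearson r 0.981), F3, tissue factor, which starts coagulation (0.958), and Kctd9 (0.931). For the mu class, the genes nearest to Gstm2 were Icam2, an adhesion molecule of endothelium (0.943), Dipk2a (0.933) and Stard13 (0.932). For the other classes, those nearest to Gsto1 (1456036_x_at) were Gfpt1, the first enzyme of hexosamine synthesis (0.899), Mal (0.888) and Cxcl17, a mucosal chemokine (0.882). These correlations describe 17 means that share control lungs and were not tested. Among members, the r of Gsta2 was 0.877 with Gsta4, 0.622 with Gsta3 (1423436_at) and 0.676 with Gsto1 (1416531_at).

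Whole lung was measured, so fewer cells of a type and less RNA per cell cannot be told apart. Of all probe sets, 2.18% were called higher and 1.64% lower at 4 h, and 3.21% and 2.9% at 8 h. These shares were 2.36% and 1.87% at 48 h, and 1.68% and 1.19% at 72 h. At 12 and 24 h, 1.04% and 0.769% were called higher. Club cell markers, 8 of 11 measured, summed to between 17080 and 21720 in phosgene lungs at 8 h, against 24770 to 28010 in air lungs, and 4 of the 8 were called lower while Gsta2 and Gsta4 were higher. At 48 and 72 h, when mu probe sets were called lower, 0 of the 8 club cell markers were called lower and 1 and 0 higher. Their median log2 differences were then -0.065 and -0.038. Neutrophil markers, 9 of 10 measured, summed to between 2103 and 5332 in phosgene lungs at 8 h, against 1242 to 1276 in air lungs, and 4 of 9 were higher. Endothelial markers, 10 of 10 measured, summed to between 6683 and 7532 in phosgene lungs at 48 h, against 9611 to 11420 in air lungs, and to between 6176 and 7629 at 72 h, against 9581 to 11580 in air lungs. Of these 10 markers, 4 were called lower at 48 h and 4 at 72 h, when 2 and 3 mu probe sets were called lower. Of the same markers, 3 were called lower at 4 h and 4 at 8 h (median log2 differences -0.445 and -0.416), times at which no mu probe set was called. Heart muscle markers, 8 of 8 measured, which mouse lung holds in the walls of pulmonary veins, summed to between 2796 and 3092 in phosgene lungs at 48 h, against 3504 to 4662 in air lungs, and 4 of 8 were lower at 48 h and 4 at 72 h. Red cell markers, 5 of 8 measured, summed to between 436.9 and 536 in phosgene lungs at 48 h, against 789 to 1174 in air lungs, with 3 of 5 lower. Macrophage markers, 10 of 12 measured, summed to between 2945 and 4472 in phosgene lungs at 48 h, against 2385 to 2926 in air lungs, and to between 3139 and 5564 at 72 h, against 1664 to 2399 in air lungs. Of these 10, 3 were called higher at 48 h and 4 at 72 h, and Gsto1 was called at 48 h but not at 72 h. At 4, 12 and 24 h, when Gsto1 was called higher, 0, 0 and 1 of the macrophage markers were called by limma, with median log2 differences of 0.199, -0.071 and -0.107. No marker of the club, endothelial, heart muscle or macrophage lists had a mean under 20 over all lungs together. The neutrophil list held 1 such marker (Camp) and the red cell list 1 (Epb42). Means of single groups were not checked against this limit. The part of any of these cell types in the transferase results was not tested.

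Chips could be compared within a hybridization day or a chip lot for the 16 calls. Within days 39 differences could be formed and within lots 28, from 1 or a few chips a group, and all of them had the sign of the pooled difference. These chips are among those that gave the calls, so the shared sign is no separate support for them. Their size varied. For Gsta2 at 8 h the differences within 2 days were 2.06 and 1.70, against 2.09 pooled. For Gsta4 at 8 h they were 0.407 and 0.286 within 2 days, against 1.08 pooled. For Gstm1 (1416416_x_at) at 48 h they ran between -0.294 and -0.112 within 3 days, against -0.456 pooled. Days and lots share chips, so they are not separate comparisons: at 8 h the difference of 1.70 for Gsta2 is that of 1 day and of 1 lot, each with 1 chip a group.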

How the data were processed

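The deposited table holds a linear signal intensity for each probe set on each of 104 Affymetrix MOE430A chips (chip type per the file headers), which the authors had scaled to an equal mean after trimming 2% of values at each end, a step recomputed from the values. The algorithm behind the intensities is not given in the sources used here. Chip settings files, deposited as text with the unit other, gave 11 hybridization days for 97 chips and 3 chip lots for 95. Of 22690 probe sets, 64 array controls were left out. Gene names come from the platform annotation, with 20380 probe sets of 1 symbol, 691 of several and 1555 of none. No detection call was used, and the number of lungs limits the precision.

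After adding 16, intensities were taken to log2, the 2 chips of a lung were averaged, and all 17 groups (52 lungs) were fitted with limma 3.58.1 in R 4.3.3, with variances moderated by a trend on mean intensity (35 residual degrees of freedom). Contrasts were phosgene minus air at each time, their average, air minus untreated, and F tests over times, each 2-sided, with Benjamini-Hochberg adjustment over 22626 probe sets. The lung values printed are those means with 16 taken off again. Summaries used Python 3.11.15. The fit was tested on simulated data. Promoters are RefSeq's (GRCm38.p6).

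The family's members and the gene and marker lists were chosen with earlier results of these data known. Every member was accounted for, values of every lung were given for called probe sets at the time of largest change, the brightest probe set stood for a listed gene, up to 4 genes of a list were named by size of change, and the 3 genes of most similar pattern were named for the gene of highest r in each class. Exceptions chosen after their values were seen are Akr1b8, Ephx1, Gsr, Bach1, Nfe2l2, Keap1, Gpx1 and Gstp1. Alternatives changed the offset, scaling, dim filter, probe set choice, chip, block, day, lot, groups fitted, control and single lungs. Chip letters of descriptions and titles differ for 56 chips.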

Additional observations from a re-analysis of the deposited data

Results flagged for a closer look

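The phosgene difference of 2 probe sets changed with time by the F test (limma, adjusted over all 22626 probe sets). For Gsta2 (1421040_a_at) the adjusted p was 0.000466: its log2 difference was 2.09 at 8 h and 0.04 at 72 h. For Gstm1 (1448330_at) the adjusted p was 0.0385: its log2 difference was 0.11 at 8 h and -0.64 at 72 h. With quantile normalization, or with chip A or chip B alone, this F test called fewer members, and which call was lost is not given. No air lung of 48 h, the group with 4 lungs, stood apart from the others by Dixon's test in any of 15 tests. With 4 lungs, 2 of them with numbers apart, this test of single outliers can miss a difference, so it does not show that the lungs agree.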

How the results depend on the processing

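Values recomputed under other settings for single members were compared only where the main fit or the other setting called the probe set. Of these, 310 kept direction and side of the threshold, 41 lost the call, 36 gained one and 2 turned direction. Turns of direction among values called in neither fit were not counted. The 2 were both Gsta3 probe sets at 12 h, which were 1.131 and 0.57 against untreated lungs. Refits that left out 1 lung are not in these totals. Compared in the same way, 53 of them kept direction and side of the threshold, 46 lost the call and 5 gained one. With untreated lungs as the control the counts called were 5 at 8 h, 4 at 12 h and 3 in the average, against 2, 2 and 7 against air. All probe sets had 1769, 497 and 1239 calls with that control, against 1382, 322 and 5031 against air. A fit of single chips took the chip letter as a replicate block and the lung as a random block. Its counts were 24 calls over the 8 times, 1 at 1 h, 5 at 72 h and 6 in the F test over times, against 16, 0, 3 and 2. That fit also raised the calls among all probe sets, to 316 at 1 h, 1234 at 72 h and 1696 in the F test, against 165, 648 and 619. With the letters of the titles, added after the values were seen, they were 23, 1, 5 and 6. The letters only number the 2 chips of a lung, and 1 chip correlation (0.286) was assumed for all probe sets. With hybridization day as a term, 1 h had 1 and the F test 5; with chip lot, 1 and 6. All probe sets had 364 and 1376 calls with day, and 319 and 1285 with lot. The day and lot fits used single chips rather than lung means, with assumed chip correlations of 0.302 and 0.326. At 4 h all probe sets had 1420 calls with day and 1272 with lot, against 864 in the main fit. At 72 h they had fewer, 353 and 307, against 648. Of the 16 calls, Gstm2 at 72 h alone was lost with day and with lot. The term and the unit changed together, so the part of day or lot alone was not tested. Fitting only the groups of a time gave 6 calls in all, 1 at 8 h, 0 at 12 h, 1 at 24 h, 1 at 48 h and 0 at 72 h, while all probe sets had 200, 65, 182, 459 and 32, against 1382, 322, 291, 958 and 648. With 1 probe set per gene, 10 transferase probe sets were fitted. There were 9 calls, 2 at 4 h, 1 at 12 h, 1 at 24 h and 1 at 48 h, with 4 in the average and 1 in the F test in air. Left out were 1416531_at of Gsto1, 1448330_at of Gstm1 and 1423437_at of Gsta3, so their calls could not appear. Of the 12393 probe sets fitted, 683, 227, 246 and 674 were called at these times, with 3232 in the average and 119 in the F test in air. Chip A alone gave 1 at 12 h, 1 at 24 h and 1 in the F test over times, where all probe sets had 170, 190 and 376 calls, against 322, 291 and 619. Chip B alone gave 8 calls, 0 at 24 h, 0 at 48 h, 1 at 72 h, 1 in the F test over times and 0 in that in air. All probe sets then had 133, 534 and 456 calls at these times, against 291, 958 and 648. They had 362 in the F test over times and 76 in that in air, against 619 and 134. Without the 5 air lungs numbered apart, 24 h had 1, where all probe sets had 288 calls, against 291. At 72 h that fit leaves 1 air lung, assumed to vary like the other groups. Counts at 72 h and in the F test in air are therefore not given for it. At 24 h, median centring, no variance trend and an offset of 64 each gave 1, where all probe sets had 191, 267 and 296 calls, against 291. Median centring gave 0 in the F test in air, and quantile normalization 1 in the F test over times. All probe sets had 115 and 610 calls in these, against 134 and 619. Leaving out 1 lung at a time, the counts were 0 at 0.5 h, 0 to 1 at 1 h, 2 to 3 at 4 h, 1 to 3 at 8 h, 0 to 3 at 12 h, 0 to 1 at 24 h, 0 to 4 at 48 h and 0 to 3 at 72 h. Apart from the probe sets left out with 1 per gene, the cause of a changed count was not tested. Gsta2 at 4 and 8 h was called under all 16 other settings. The array gives no lower limit of detection here, and 3 lungs a group limit what could be called.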

Other observations

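Among the comparisons of air with untreated lungs over the 8 times, the Gsta3 probe sets at 12 h were the only transferases called. Gsta2 averaged 86.1 in air lungs at 12 h and 61.4 in untreated lungs, a log2 difference of 0.415 that was not called (adjusted p 0.438, limma). The nearest genes to Gsta3 (1423436_at) by pattern over the 17 group means were Fmo2, a flavin monooxygenase of lung (Pearson r 0.86), Sbds (0.851) and Angptl7 (0.832). Those nearest to Gsta4 were Pfn2 (0.921), Chmp4b (0.919) and Abcb6 (0.915). These were looked up after the values were seen and were not tested.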
